A study of Mus musculus with 6 samples.

Results

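Chromosome 6 of the mouse carried 5179 of the 106132 accessible regions called in wildtype (WT) dermal fibroblasts and 5403 of the 98072 called in fibroblasts lacking Lap2alpha (KO). Its members were all peaks that the deposited lists place on that chromosome. The chromosome was selected on its measured ratio of KO to WT peaks, which was high, so the counts that give this ratio are a description, with no test. Open chromatin had been profiled by ATAC-seq in cultured mouse dermal fibroblasts, the collagen-producing cells of the skin, with 3 WT and 3 KO libraries. The labels give no age or sex, and they do not say whether the libraries of a genotype came from separate animals or cultures. Each genotype had 1 peak list that combined its libraries, so no value below has a replicate spread and no genotype difference was tested. Read totals were not used here and the depth is unknown. A peak called in 1 list can be just under the calling threshold in the other.

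In ATAC-seq a transposase inserts sequencing adapters where DNA is not held in compact chromatin, so peaks mark promoters, enhancers and other exposed stretches. Lap2alpha is a splice form of lamina-associated polypeptide 2 that lacks a membrane anchor and binds A-type lamins in the nuclear interior. Its gene, Tmpo, lies on chromosome 10, and since the other splice forms share its start, these peak lists do not check the knockout. Of 15 dermal fibroblast marker genes, 14 had a peak at the gene start in each list, among them Col1a1, Pdgfra and Thy1, and Lum had none in either. None of 6 keratinocyte and none of 4 muscle markers had such a peak in either list. Of 5 leukocyte markers 2 had one in WT and 3 in KO, and of 5 endothelial markers 2 had one in each list. Of 3 neuron markers 2, Syt1 and Snap25, had one in each list, as did 1 of 5 melanocyte markers, Pmel.

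Chromosome 6 holds the gene of the second chain of type I collagen, the Hoxa cluster, a microRNA-29 pair and a long array of natural killer cell receptor genes. The promoters below are from genes named for a large gene difference or for a gene-start call, where a peak reached the printed sequence. They run 5′ to 3′ on the strand of the gene, 300 bases each, from RefSeq on GRCm38.p6. Capitals mark matches, on either strand, to the AP-1 motif TGANTCA, the TEAD motif GGAATG, the promoter element CCAAT, the Sp1/KLF motif GGGCGG, the core promoter element TATAAA and the E-box motif CACGTG. The matches shown do not overlap each other.
Lmcd1 promoter (chr6:112273508-112273807, plus strand): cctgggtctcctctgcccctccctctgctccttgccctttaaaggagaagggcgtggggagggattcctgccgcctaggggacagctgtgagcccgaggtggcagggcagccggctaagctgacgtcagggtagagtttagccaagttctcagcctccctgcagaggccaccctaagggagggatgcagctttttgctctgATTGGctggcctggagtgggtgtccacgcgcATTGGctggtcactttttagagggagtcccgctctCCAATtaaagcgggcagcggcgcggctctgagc
Col1a2 promoter (chr6:4505368-4505667, plus strand): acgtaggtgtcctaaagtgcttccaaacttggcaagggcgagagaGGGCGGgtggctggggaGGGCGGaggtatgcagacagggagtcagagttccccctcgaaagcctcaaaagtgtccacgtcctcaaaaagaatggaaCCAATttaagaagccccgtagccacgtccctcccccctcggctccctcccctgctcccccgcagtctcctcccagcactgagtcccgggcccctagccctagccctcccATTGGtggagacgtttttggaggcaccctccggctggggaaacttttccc
Klrc3 promoter (chr6:129643239-129643538, minus strand): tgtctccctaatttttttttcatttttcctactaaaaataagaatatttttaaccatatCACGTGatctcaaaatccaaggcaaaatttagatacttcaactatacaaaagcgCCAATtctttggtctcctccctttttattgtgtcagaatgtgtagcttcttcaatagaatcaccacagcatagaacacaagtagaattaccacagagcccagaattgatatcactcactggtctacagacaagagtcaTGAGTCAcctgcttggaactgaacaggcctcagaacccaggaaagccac
Klrc2 promoter (chr6:129660507-129660806, minus strand): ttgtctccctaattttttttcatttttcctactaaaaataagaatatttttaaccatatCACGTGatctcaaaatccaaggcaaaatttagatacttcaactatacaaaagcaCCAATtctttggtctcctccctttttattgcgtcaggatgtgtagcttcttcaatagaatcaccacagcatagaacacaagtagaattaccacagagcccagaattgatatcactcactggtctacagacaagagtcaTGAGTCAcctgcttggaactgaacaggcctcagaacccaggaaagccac

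The Lmcd1 promoter lay under a KO peak and no WT peak, the Col1a2 promoter under a peak in both lists, and the promoters of Klrc3 and Klrc2 under a WT peak and no KO peak. Lmcd1 had a CCAAT match at -49, -18 and 18, counted from the gene start at 1, and Col1a2 had CCAAT at -109 and 1 and GGGCGG at -205 and -188. A CCAAT match stood in 36.6% of the 1164 chromosome 6 promoters and in 38.2% of 21262 promoters on all chromosomes, and GGGCGG in 44.2% and 46.2%. Klrc3 and Klrc2 each had TGANTCA at 2, CCAAT at -137 and CACGTG at -191. TGANTCA stood in 8.59% of chromosome 6 promoters (6.99% of all), and CACGTG in 5.07% (7.84% of all). The Klrc2 and Klrc3 sequences are alike at 289 of 300 positions (96.3%). Reads from such near-identical copies can be placed on either gene, so their calls are uncertain. A match is a description of these letters and not a binding site.

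Also shown, because the widest WT peak of the chromosome stood beside their genes or because WT peaks at them had no KO partner, are mature microRNAs of GRCm38.p6 from RefSeq, with the seed (bases 2 to 8) in capitals.
mmu-miR-29a-3p (chr6:31062673-31062694, minus strand): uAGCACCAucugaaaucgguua
mmu-miR-29b-3p (chr6:31063025-31063047, minus strand): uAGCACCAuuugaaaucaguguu
mmu-miR-196b-5p (chr6:52230129-52230150, minus strand): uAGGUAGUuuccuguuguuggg

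The miR-29a and miR-29b sequences share the seed AGCACCA, and miR-29 is known for targeting collagen and other matrix transcripts. The strongest chromosome 6 peak of the WT list (signal percentile 99.98 within its list) ran from 31052555 to 31060727 and ended 1933 bp from the Mir29a hairpin. It was shared, and the KO peak there ran from 31052844 to 31060114 at percentile 99.85. Around the hairpins peaks ranked higher in the WT list. The peak over Mir29a was at percentile 88.9 in WT, from 31060971 to 31063029, and at 60.2 in KO, from 31061571 to 31062973. Within 15 kb of Mir29a, WT peaks at percentiles 49.5, 3.61, 33.5, 2.98 and 63.7 had no KO partner, while each KO peak there overlapped a WT peak. The microRNA genes named here were chosen after their values were seen. Of 39 hairpins on the chromosome, 11 had a peak within 1 kb in WT, 11 in KO and 9 in both.

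More of the chromosome was called open in KO than in WT, against the direction of the genome. Its KO list had 104.3% of the WT peak number, against 92.4% over all chromosomes, which was rank 2 of 20 chromosomes. The peaks covered 3.25 Mb in WT and 3.64 Mb in KO, or 112.0% by length, against 94.0% over all chromosomes. Of WT peaks, 84.5% (95% Wilson interval 83.4 to 85.4, which covers counting error only) overlapped a KO peak by at least 1 bp. Of KO peaks, 79.1% (78.0 to 80.1) overlapped a WT peak. WT-only peaks numbered 805, or 15.5% of the chromosome's WT peaks, where 20.4% were WT-only over all chromosomes. KO-only peaks numbered 1131, or 20.9%, where 13.4% were KO-only over all chromosomes. These shares come from the contrast that the chromosome was chosen for. Chromosomes 18 and 14 also had more KO than WT peaks, 110.5% and 101.4%, and the remaining chromosomes had fewer. Chromosomes 18, 15 and 14 also had a greater covered length in KO, 124.8%, 107.8% and 104.0% of WT, and the remaining ones a smaller one.

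The peaks without a partner were weak and narrow. Within its own list the median such peak stood at signal percentile 17.9 (WT) or 18.5 (KO), and the median shared peak at 55.7 or 58.7. Median widths were 225 bp (WT) and 262 bp (KO) without a partner and 499.5 and 572 bp with one. The signal is an area, which grows with width. In the strongest decile of each list, 0 of 427 WT peaks and 1 of 541 KO peaks on the chromosome lacked a partner. In the weakest decile, 52.0% of WT peaks were shared against 37.5% over all chromosomes, and 38.8% of KO peaks against 55.7%. The gap between chromosome 6 and the genome was thus widest among weak peaks and small among strong ones. Unpartnered peaks in the upper 50% by signal numbered 78 of 2511 in WT and 113 of 2688 in KO. Over all chromosomes they numbered 1851 of 53066 and 1181 of 49036. In this upper part the share with a partner was thus near that over all chromosomes in WT (96.9% and 96.5%). In KO it was lower (95.8% and 97.6%).

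Shared peaks were on balance stronger in rank and wider in KO. The lists held 3863 pairs in which 1 WT and 1 KO peak overlapped each other and no other peak. The percentile was higher in KO in 62.9% of these pairs, with a median shift of 2.38 percentage points and quartiles of -4.01 and 9.42, against a median of -1.57 over all chromosomes. The KO peak was the wider in 62.5% of pairs, against 47.0% over all chromosomes. The signal is an area, so its rank and the width are not separate readings. Summits were a median of 11 bp apart, both here and over all chromosomes, so the positions differed little. Ranking by signal per base or by summit p gave median shifts of 2.52 and 3.20. Chromosomes 18, 15 and 14 also had a higher median rank in KO, with shifts of 4.48, 1.48 and 0.55 percentage points. Of their pairs, 71.7%, 60.2% and 55.6% were wider in KO. On the remaining chromosomes the median shift was negative.

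The difference was unevenly placed along the chromosome. Blocks of 5 Mb are numbered from its start, with each peak placed by its summit. The stretches named here were chosen after the block values were seen. Blocks 1 to 9 held 1433 WT and 1322 KO peaks (92.3%), and 40.5% of their 993 pairs were wider in KO. Blocks 10 to 30 held 3746 and 4081 (108.9%), with 122.0% of the WT covered length, and 70.1% of their 2870 pairs were wider in KO. The first 9 blocks were thus near the genome's ratio, and 947 of the 1131 KO-only peaks (83.7%) lay in the others, which held 72.3% of WT peaks. Of 28 blocks with at least 100 peaks in both lists together, 14 had more KO than WT peaks, where 24.2% of such blocks did over all chromosomes.

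**Figure D1:**
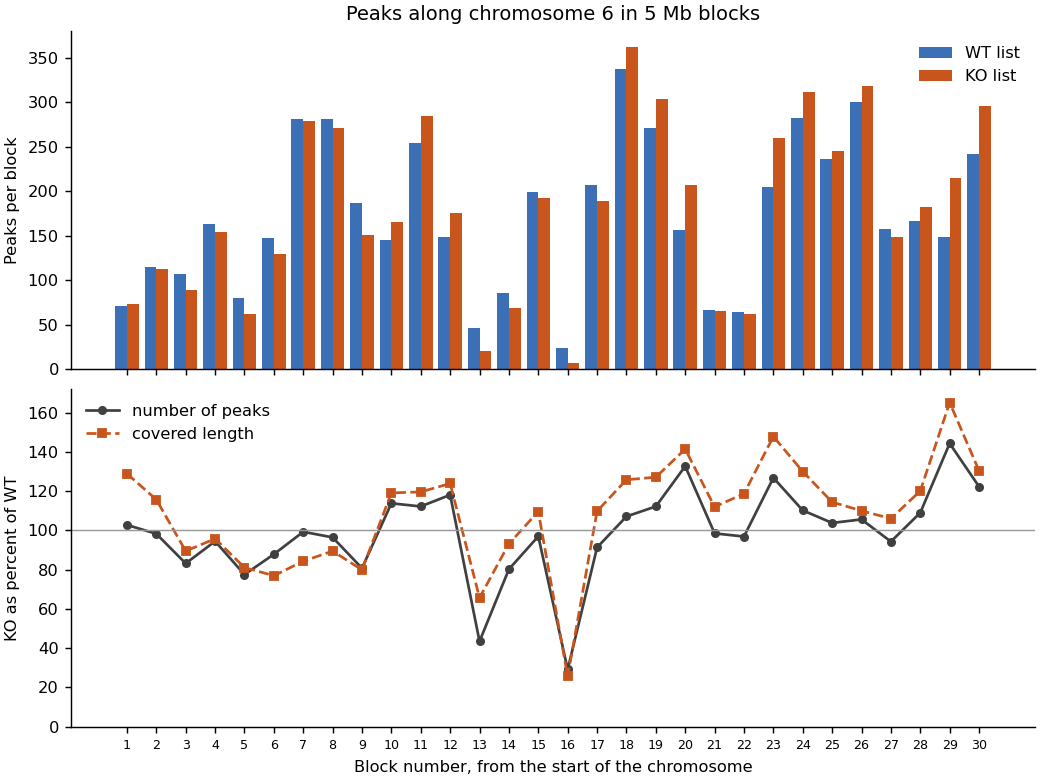
Peaks per 5 Mb block of chromosome 6 in the WT and KO lists (upper panel) and KO as a percent of WT by number of peaks and by covered length (lower panel), by block number. From block 17 on covered length was above 100% in each block and reached 165.1% in block 29, whereas blocks 3 to 9 stayed under 100%.

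Block 29 had the highest ratio, with 149 WT and 215 KO peaks (144.3%). Block 20 followed with 156 and 207 (132.7%), and block 23 with 205 and 260 (126.8%). These blocks hold Pde3a and Sox5, Tafa1, and Lmcd1 and Hrh1, among the genes with the largest KO excess below. Among blocks with at least 100 peaks, the lowest were block 5 with 80 WT and 62 KO peaks (77.5%), block 14 with 86 and 69 (80.2%) and block 9 with 187 and 151 (80.7%). Block 9 holds olfactory receptor genes, Wee2 and Arhgef5. Blocks 13 and 16, with few peaks, had 46 WT and 20 KO, and 24 WT and 7 KO. Block 16 holds Ctnna2, a long neuronal gene.

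**Figure D2:**
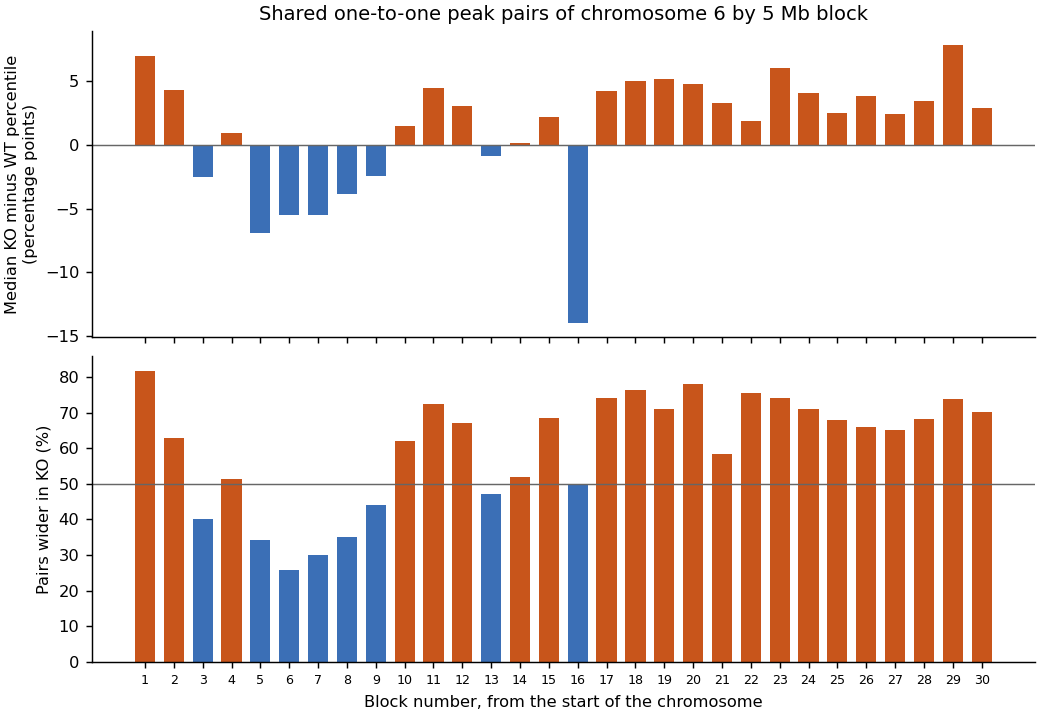
Median KO minus WT signal percentile (upper panel) and percent of pairs wider in KO (lower panel) for one-to-one shared peaks in each 5 Mb block of chromosome 6, with bars coloured by the side of the line they fall on. The median was above 0 in 22 of 30 blocks, and block 16 rests on 2 pairs.

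Block 1, where Col1a2 lies, held 71 WT and 73 KO peaks but 128.9% of the WT covered length, and 81.8% of its 44 pairs were wider in KO. Block 2 went the same way, with 115 WT and 113 KO peaks, 115.7% of the WT covered length and 62.8% of its 78 pairs wider in KO. In blocks 5 to 8 the pairs went the other way, with 34.1%, 25.7%, 29.9% and 35.0% wider in KO and median shifts of -6.91, -5.50, -5.55 and -3.83 percentage points. The microRNA-29 genes lie in block 7.

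Genotype-only peaks seldom lay at gene starts. Summits within 1 kb of a gene start made up 3.60% of the peaks without a partner in WT (interval 2.52 to 5.13) and 3.80% in KO (2.84 to 5.08), against 14.0% and 13.5% of shared peaks. Inside genes lay 45.7% (WT) and 48.5% (KO) of them, and between genes 50.7% and 47.7%. Over all chromosomes the shares at gene starts were 4.61% (WT) and 3.25% (KO). Both kinds were thus mostly distal, as on the other chromosomes.

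Peaks were assigned to the protein-coding gene with the nearest end within 100 kb, for 1126 genes on the chromosome. KO-only peaks outnumbered WT-only peaks at 304 genes (27.0%, where 16.0% of all genes did), and the reverse held at 250 (22.2%, where 30.6% did). An excess of at least 5 peaks was seen at 29 genes towards KO and at 8 towards WT. Of the 21883 genes on all chromosomes, 203 had such an excess towards KO and 456 towards WT. At the gene start, 548 genes had a peak in both lists (48.7%, with 55.0% of all genes). In neither list was there one at 540 genes, and at 9164 of all 21883. A peak in KO only was seen at 22 gene starts (1.95%, with 1.08% of all genes), and in WT only at 16 (1.42%, with 2.01% of all genes). At 5 of the 22, Wnt2 and Oxtr among them, the KO peak overlapped a WT peak that stopped short of the 1 kb window. A gene's excess and the regional excess of its block cannot be told apart with these lists.

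**Figure D3:**
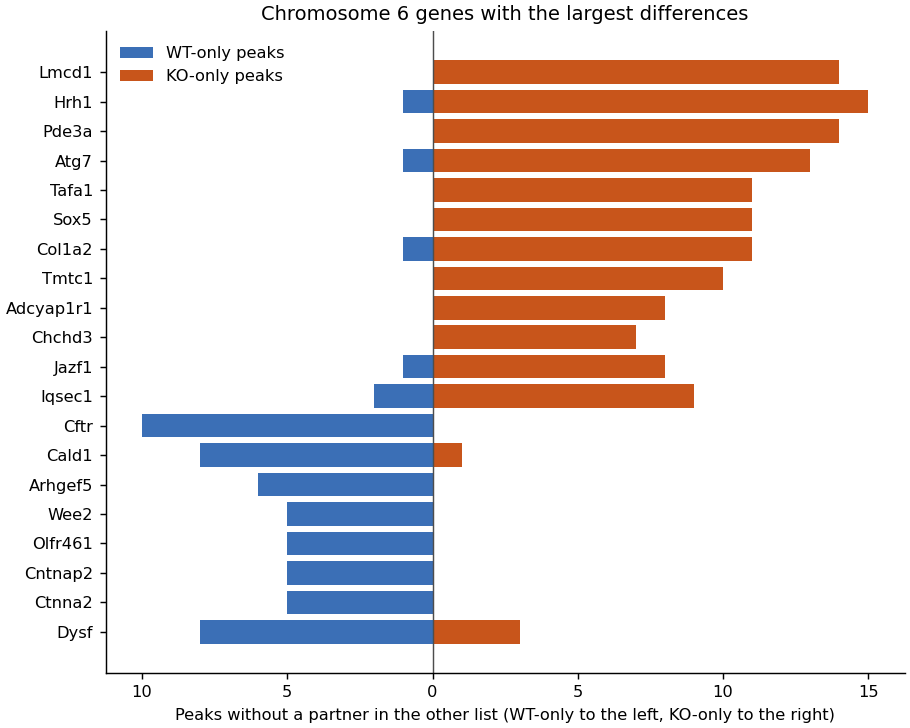
Peaks without a partner in the other list, assigned to the 12 chromosome 6 genes with the largest KO excess and the 8 with the largest WT excess. Lmcd1 and Pde3a had 14 KO-only and 0 WT-only peaks each, and Cftr had 10 WT-only and 0 KO-only peaks. Ties were taken by lower start, so Cd9, with the same excess of 7 as Chchd3, Jazf1 and Iqsec1, is not drawn.

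Lmcd1, a LIM-domain cofactor of transcription, was the clearest case. It runs from 112273758 to 112330423 on the plus strand in block 23. The WT list gave it 3 peaks, all 27.8 kb or more upstream of the start, at percentiles 14.0, 32.1 and 27.9. The KO list gave it 17, which overlapped the WT ones at percentiles 25.2, 46.5 and 86.0 and added 14 without a partner. The KO peak over the promoter printed above ran from 112273378 to 112274100 at percentile 84.6, with its summit 119 bp before the start. Another at 112320071 to 112321287, in the gene body, was at percentile 80.7. Of the 14, 8 were in the upper 50% of the KO list. The run of 13 consecutive KO-only peaks from 112246552 to 112362910, with no WT peak among them, was the longest KO run on the chromosome.

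Hrh1, the histamine H1 receptor gene in block 23, had 29 WT and 43 KO peaks, of which 1 and 15 had no partner. At one of its gene starts peaks were in both lists, at percentile 64.2 in WT and 95.1 in KO. At another, KO peaks from 114457454 to 114457910 (percentile 20.8) and from 114458095 to 114458831 (63.5) had no WT partner. The latter was the only one of its 15 KO-only peaks in the upper 50% of the list. Further along block 23, Atg7, which encodes the E1-like enzyme of autophagy, had 44 WT and 57 KO peaks, of which 1 and 13 had no partner. A shared peak in Atg7 spanned 154 bp at percentile 7.38 in WT and 2660 bp at percentile 86.2 in KO. A KO-only peak in the gene, from 114794306 to 114795270, reached percentile 80.7. When peaks were assigned by gene body, the KO excess of Lmcd1, Hrh1 and Atg7 was 6, 7 and 5 in place of 14, 14 and 12. Many peaks of Hrh1 and Atg7 lay between these genes, from 114497445 to 114632037, at near-regular spacing in both lists. Of the KO-only peaks, 8 of 15 at Hrh1 and 7 of 13 at Atg7 lay between genes. Whether reads there can be placed at a single site was not tested, so these counts are uncertain.

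Pde3a, a phosphodiesterase gene that ends cyclic AMP signals, had 6 WT and 19 KO peaks in block 29, and 14 of the KO peaks had no partner. Most of these 14 were weak, with a median percentile of 15.5 and 2 in the upper 50% of the KO list. The KO excess of 14 was 5 at the stricter threshold, 2 in the upper 50% by signal and 7 with lists of equal length. All 6 WT peaks lay 78.0 kb or more into the gene, at percentiles 15.2 to 59.4. At the gene end at 141249269, WT had no peak and KO had 2, from 141248244 to 141248586 at percentile 14.7 and from 141249123 to 141250674 at percentile 88.4. Of the KO peaks at gene starts without any WT partner, the second of these was the strongest. Before Pde3a, 207580 and 207101 bp from any gene end, KO-only peaks from 140884747 to 140886603 and from 141041300 to 141042801 were at percentiles 91.9 and 86.7. The first of them was the only unpartnered KO peak of the chromosome in the strongest decile. Sox5, a transcription factor of cartilage formation in the same block, had 17 WT and 26 KO peaks, and 11 of the KO peaks had no partner. Its KO excess was 3 at the stricter threshold, 3 in the upper 50% by signal and 10 with lists of equal length.

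Col1a2, the gene of the alpha 2 chain of type I collagen, had 29 WT and 35 KO peaks in block 1, whose KO ratio was 102.8%. At the start the WT list had separate peaks from 4505208 to 4506529 (percentile 89.7) and from 4506693 to 4508057 (85.6). The KO list had a single peak across both, from 4505219 to 4508024, at percentile 99.0. Upstream, the peak 48.6 kb before the start was at percentile 99.7 in KO and its WT partner at 98.2. The peak 17.1 kb before the start was at 97.9 in KO and 91.3 in WT. These strong elements were shared and ranked higher in KO. The 11 KO-only peaks were all in the lower 50% of the KO list, at percentiles of 2.13 to 43.0, and 1 WT peak had no partner. Counting only peaks with no WT peak within 1 kb left a KO excess of 3 in place of 10.

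**Figure D4:**
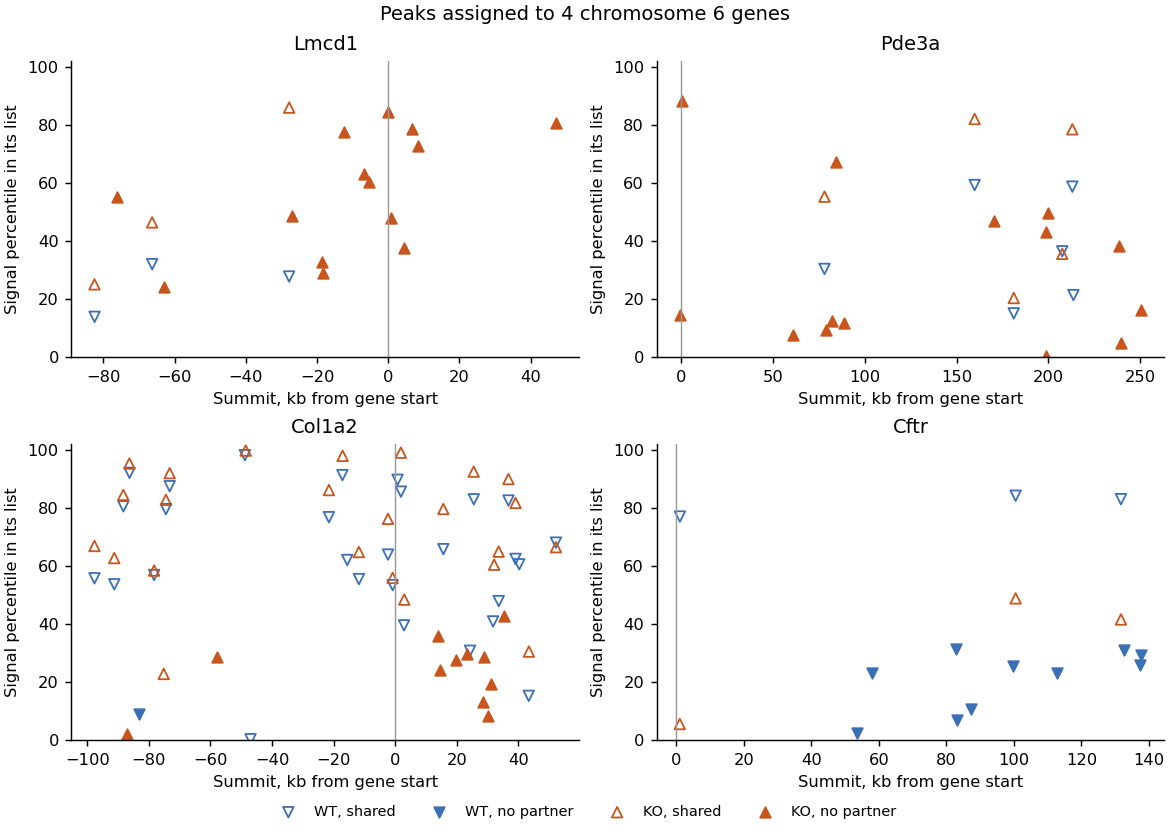
Signal percentile within its own list against distance of the summit from the gene start (for Pde3a, from its end of lower coordinate) in kb, positive into the gene, for peaks assigned to Lmcd1, Pde3a, Col1a2 and Cftr, with open symbols for shared peaks and filled symbols for peaks without a partner. Filled KO symbols surround the Lmcd1 start up to percentile 84.6, whereas those of Col1a2 stay at or under 43.0 and the filled Cftr symbols, all WT, at or under 31.5.

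Other genes with a KO excess were Tafa1, a secreted neuronal protein gene (13 WT and 22 KO peaks, 11 KO-only), and Tmtc1, which encodes a mannosyltransferase of the endoplasmic reticulum (2 and 12, with 10 KO-only). Tmtc1 also lay in a run of 12 KO-only peaks from 148332028 to 148627701 with a median percentile of 33.3. Adcyap1r1, the receptor gene of the peptide PACAP, had 6 and 14 peaks, 8 of them KO-only. Chchd3, of the inner mitochondrial membrane complex, had 14 and 20 with 7 KO-only. Chchd3 stands in block 7, where the KO ratio was 99.3% and pairs were mostly narrower in KO. Jazf1, a zinc finger cofactor of transcription, had 8 KO-only peaks and 1 in WT without a partner, and Iqsec1, an exchange factor for ARF6, had 9 and 2. At the stricter summit threshold Iqsec1 had no excess (0), and Adcyap1r1 and Chchd3 had an excess of 1 each. It was 0 for all 3 genes among peaks in the upper 50% by signal, and with lists of equal length it was 1 for Chchd3. For Tafa1, Tmtc1 and Jazf1 the excess was 4, 3 and 2 at the stricter threshold and 1, 3 and 1 in the upper 50%. The KO ratio of the block was 122.3% at Tmtc1, 118.1% at Adcyap1r1 and 112.2% at Jazf1 and Iqsec1.

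Cftr, the chloride channel gene mutated in cystic fibrosis, had the largest WT excess by this count, 10 peaks. The excess was 2 at the stricter threshold, 3 with lists of equal length and 0 in the upper 50% by signal. The WT list gave it 13 peaks and the KO list 3. The shared peak 1.05 kb into the gene, from 18171407 to 18172089, was at percentile 77.0 in WT and 5.62 in KO, the largest difference in that direction of any one-to-one pair on the chromosome. The other shared peaks, 100.5 and 131.7 kb into the gene, were at 84.2 and 83.0 in WT and at 48.9 and 41.6 in KO. All 3 thus ranked lower in KO. The 10 WT-only peaks were weak, at percentiles 2.55 to 31.5. Wnt2, a secreted ligand gene in the same block, had its start window reached by a KO peak only, at percentile 66.8.

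Cald1, which encodes the actin-binding caldesmon, had 8 unpartnered peaks in WT and 1 in KO, while its start was open in both lists at percentiles 99.4 and 99.3. Its excess turned to 1 KO peak in the upper 50% by signal. Arhgef5, a guanine nucleotide exchange factor gene in block 9, had 10 WT and 4 KO peaks, and the peak at its start was at 91.4 in WT and 48.7 in KO. Dysf, a membrane repair gene of muscle, had 8 WT-only and 3 KO-only peaks with start percentiles of 82.1 and 56.4, and at the stricter threshold the excess was 1 towards KO. Wee2, an oocyte kinase gene, and Olfr461, an olfactory receptor gene, each had 5 WT-only and 0 KO-only peaks. Ctnna2, the neuronal alpha-catenin gene, had 5 WT and 0 KO peaks. At the stricter threshold KO-only minus WT-only peaks came to -4 for Arhgef5, -2 for Wee2 and -1 for Olfr461 and Ctnna2. In the upper 50% by signal they came to -2 for Olfr461 and -1 for Arhgef5, Wee2 and Ctnna2. By gene body they came to -2 for Arhgef5, -3 for Wee2, 0 for Olfr461 and -8 for Ctnna2. Cntnap2, a neurexin family gene, also had 5 WT-only peaks, but the excess was 8 towards KO when peaks were assigned by gene body.

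WT-only peaks also stood in runs. The longest held 21 peaks from 79739510 to 81716674, around Lrrtm4, a synaptic adhesion gene, at a median percentile of 29.2. Another, of 9, from 76754797 to 77036898 lay at Ctnna2. Runs of 3 or more held 198 of the 805 WT-only peaks in 41 runs and 281 of the 1131 KO-only peaks in 66 runs. No such count over all chromosomes is given here, so these runs are not shown to be particular to chromosome 6.

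Among shared pairs, the largest rank gain in KO was between genes, where a WT peak from 117065843 to 117066097 was at percentile 1.23 and its KO partner, of 1502 bp, at 91.0. It lies beside a run of 9 KO-only peaks from 116786949 to 117058684. A pair inside Lmntd1, whose product has a lamin tail domain, was at 2.70 in WT and 76.0 in KO. Pairs near Dusp11, a phosphatase gene, and Adamts9 were at 10.5 and 82.0 and at 8.94 and 77.4. Towards WT, the largest besides Cftr was inside Chrm2, a muscarinic receptor gene, at 73.4 in WT and 3.21 in KO. Pairs inside Atp2b2, a calcium pump gene, and Fam71f1 were at 75.7 and 7.85 and at 70.1 and 5.45. Each of these pairs had the narrower peak in the list where it ranked lower. Because the signal is an area, a narrower peak tends to rank lower by the measure itself. Among the strongest shared peaks, those near Flnc, a filamin gene, were at 99.95 in WT and 99.88 in KO, and those at Cav1, the caveolin gene, at 99.69 and 99.87.

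Several functional lists had a surplus of KO-only peaks, as did the chromosome as a whole. Over all 1126 genes of the chromosome the share with a KO excess was 27.0%, and each count below is a description beside it. Of these genes, 918 had a peak in either list, and those without one are part of that share. Unpartnered peaks assigned to genes over the whole chromosome numbered 914 in KO and 638 in WT. The median balance of KO-only minus WT-only peaks per gene was 0 over the chromosome and over all genes, 1 for second messenger genes and 0.5 for chromatin regulators, with 0 in the other lists. Second messenger and calcium signalling genes had, over 29 genes, 67 KO-only peaks against 17 in WT, with a KO excess at 16 and a WT excess at 5. Their summed balance was 50 towards KO, and 20 at the stricter threshold. Besides Pde3a this included Pde1c, another phosphodiesterase gene, with 4 KO-only peaks and a start peak in KO only at percentile 44.0. It also included Itpr2, a calcium release channel gene, with 5 and 1. Growth factor, chemokine and receptor genes had 77 and 31 over 38 genes, with a KO excess at 13 and a WT excess at 7. Lmcd1, a transcription cofactor on this list, held 14 of the 77 and Hrh1 15. Both were also named above for their KO excess, and the gene lists were chosen with earlier results of these data known. Cxcl12, a chemokine gene of stromal cells, had 7 without a partner in KO and 2 in WT, and Met, the receptor of hepatocyte growth factor, had 4 and 2. Lep, the leptin gene, had 3 WT-only and 0 KO-only peaks.

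Matrix genes (21 of them) had 41 KO-only peaks against 11 WT-only ones, with a KO excess at 10 and a WT excess at 3, and Col1a2 held 11 of the KO-only peaks. Adamts9, a matrix protease gene, had 4 and 1, and its start peak was at percentile 71.6 in WT and 96.2 in KO. Sspn, of the dystrophin complex, had 6 and 0, while Loxl3, a collagen cross-linking enzyme gene, had 0 and 0, with its start at 98.4 and 99.4. Transcription factor genes had 77 and 44 over 36 genes, with a KO excess at 14 and a WT excess at 8. Mitf, the factor of pigment cells, had 5 and 0, Foxp1 had 7 and 3, and Tead4, a DNA-binding partner of YAP, had 0 and 4 with a start peak at 85.7 in WT and 35.7 in KO. Chromatin regulators had 33 and 13 over 20 genes, and Ezh2, the histone H3 lysine methyltransferase of Polycomb, had 3 and 0 with start percentiles of 75.8 and 90.3. Cell cycle and DNA repair genes had few unpartnered peaks, 12 and 6 over 22 genes, and 21 of the 22 starts were open in both lists.

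The Hoxa cluster, whose genes set position along the body axis, leaned the other way inside a block that had more KO peaks (block 11, 112.2%). Its 12 genes, Evx1 included, had 1 KO-only peak against 6 in WT, and 4 of the WT-only ones were assigned to Hoxa10. The balance of KO-only minus WT-only peaks was -5, also with reciprocal overlap and by gene body. At the strict threshold the balance was 1 towards KO. It was -1 when any peak within 1 kb counted as a partner, and 0 in the upper 50% or with equal lists. The start peak of Hoxa10 was at percentile 43.7 in WT and 1.22 in KO, whereas those of Hoxa3 were at 96.5 and 95.3 and those of Hoxa5 at 86.2 and 90.6. A WT peak from 52229320 to 52230338 at percentile 69.2 lay over the miR-196b hairpin, the microRNA of the cluster printed above, and no KO peak did. The nearest shared WT peak, from 52231902 to 52233323, was at 86.9 and its KO partner at 63.3. Weak WT-only peaks at percentiles 6.38 and 12.8 lay between. These WT-only peaks at the hairpin are among those counted above for Hoxa10 and are not a further observation.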

How the data were processed

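The data were 2 deposited ATAC-seq peak lists of mouse dermal fibroblasts, 1 for 3 WT and 1 for 3 KO libraries. Bowtie2 2.5.1, deepTools 3.5.1, Genrich and the build GRCm38 stand in the submitters' processing notes. Not given in the sources used here were the Genrich settings, any shift of reads for Tn5 and the merging of libraries. The authors deposited a score per peak (ceiling 1000, not used), a signal, which is an area of at least 200 with no scaling between lists, and the −log10 of the summit p. The signal was used only as a percentile within its list, over all chromosomes, and the summit p as a stricter threshold (9.98, the WT median). The q was not used.

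Peaks were shared if they overlapped by at least 1 bp. Genes were the 1126 protein-coding RefSeq genes (GRCm38.p6) of chromosome 6. For 952 the starts came from the RefSeq promoter table, and for the other 174 either gene end stood for the start. A gene start was open if a peak reached within 1 kb of it. A peak was named by its coordinates counted from 1, and exon, intron and UTR were not told apart. The members and gene lists were chosen with earlier results of these data known. Genes named were the 12 and 8 with the largest excess of KO-only and WT-only peaks, up to 4 members per list and direction with a start peak in 1 list only (otherwise 2 of highest shared signal), the strongest unpartnered and shared peaks, the largest rank changes and the longest runs. Some genes and runs that this rule took are not reported here. Other list members named were chosen after their values were seen. Promoters printed were those of named genes whose own sequence the peak reached. Alternatives changed overlap, threshold, list length, gene assignment, window and block position. Python 3.11.15, numpy 2.4.6, pandas 2.3.3 and scipy 1.17.1 were used, and the overlap code was tested on simulated data against bedtools 2.31.1.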

Additional observations from a re-analysis of the deposited data

How the results depend on the processing

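Each result below is from 1 list per genotype, with no replicate to leave out. No paired analysis was possible because each genotype has 1 combined list. KO peaks as a percent of WT were above 100 under each alternative that could move them. They came to 109.1% at the stricter summit threshold, 107.0% in the upper 50% by signal and 113.9% with lists of equal length (73554 peaks each), where covered length was 115.2% of WT. Over all chromosomes these were 96.5% and 92.4%, and equal by construction with equal lists, with a covered length of 96.4%. The share of WT peaks with a partner was 67.6% with a reciprocal overlap of 50% (66.4% over all chromosomes). It was 87.9% (84.4%) counting any peak within 1 kb and 86.5% (82.4%) at the stricter threshold. In the upper 50% it was 96.9% (96.5%) and with equal lists 88.0% (84.2%). With reciprocal overlap and in the upper 50% the WT share was thus near that over all chromosomes. For KO peaks the shares on chromosome 6 were 64.8%, 83.6%, 95.8% and 76.1%, leaving out the stricter threshold, which moved the share by less than its interval. Over all chromosomes the KO shares were 71.9%, 89.3%, 97.6% and 84.7% in the same order. WT-only peaks numbered 1679 of 5179 with reciprocal overlap and 343 of 2538 at the stricter threshold. They numbered 78 of 2511 in the upper 50% and 423 of 3530 with equal lists. Over all chromosomes they were 35631 of 106132, 9342 of 53083, 1851 of 53066 and 11601 of 73554 in the same order. KO-only peaks numbered 1903 of 5403, 595 of 2768 and 113 of 2688 under the first 3 of these settings. Over all chromosomes they were 27571 of 98072, 7343 of 51221 and 1181 of 49036. A ratio or length was taken as moved past 2% of its value.

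Balances of small counts turned in some cases, and the cause was not tested. KO-only minus WT-only peaks became 1 for the Hoxa cluster and 1 for skeletal muscle genes at the stricter threshold, and -2 for neuronal genes with reciprocal overlap. For Clec lectins they became -1 at the stricter threshold and -2 in the upper 50%. Among genes, Cald1 came to 1 in the upper 50%, Dysf to 1 at the stricter threshold, and Cntnap2 to 2 with equal lists and 8 by gene body. Blocks with more KO than WT peaks were 14 of 30, and 15 of 30 with blocks shifted by 2.5 Mb, 17 of 29 at the stricter threshold, 18 of 29 in the upper 50% and 20 of 29 with equal lists.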

Other observations

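The sensory and immune receptor gene families of the chromosome had few peaks per gene. The 29 Klr genes had 54 WT and 35 KO peaks, of which 19 were WT-only and 0 KO-only, and 14 of the 29 had a WT excess, which 22.2% of chromosome 6 genes and 30.6% of all genes had. Klrc3 and Klrc2 had a start peak in WT only, at percentiles 69.5 and 69.0, and they are near-identical copies. Klrg2, which lies outside the array in block 8, had 3 WT-only peaks and start percentiles of 95.5 and 81.3. Block 26, which holds much of the array, had 301 WT and 318 KO peaks (105.6%), and block 27, which holds further members, had 158 and 149 (94.3%). In block 26 Clec2d, a lectin gene that serves as a ligand of a killer cell receptor, had 3 unpartnered peaks in KO and 0 in WT, and its start was at 88.3 in WT and 90.2 in KO. The 25 Clec genes had 7 such peaks in KO and 5 in WT.

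The 28 olfactory receptor genes had 3 peaks without a partner in KO and 11 in WT, with 5 of the latter at Olfr461. The 51 vomeronasal receptor genes had 4 and 3, the 33 taste receptor genes 4 and 5, the 8 Gimap GTPase genes 1 and 0 and the 6 Slco1 transporter genes 1 and 2. Reg3g, an antimicrobial lectin gene, had 4 WT and 0 KO peaks, which were the only peaks of its family of 4. Cytoskeleton and caveolae genes had, over 28 genes, 60 KO-only peaks against 44 in WT, metabolism and adipocyte genes 35 and 16 over 30, and neuronal genes 34 and 27 over 25. Leukocyte genes had 5 and 7 over 26, endothelial genes 8 and 6 over 9, skeletal muscle genes 10 and 14 over 9, and melanocyte and Schwann cell genes 16 and 4 over 7, where Sox5 held 11 of the 16. Pparg, the adipocyte factor, had a start peak in WT only at percentile 13.0, and Hdac11, a histone deacetylase gene, at 62.1. Mir335, a microRNA within the imprinted Mest gene, had a WT peak 196 bp away at percentile 19.2 and no KO peak within 1 kb, and Mir141 had a KO peak 784 bp away at percentile 30.4 and no WT peak.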
